A study of Mus musculus with 12 samples.

Results

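Untreated macrophages from Commd1 knockout mice were compared with untreated macrophages from wildtype mice, across all genes measured on the array. The members are the 4 samples that the labels name as untreated, 2 per genotype, out of 12 samples in the series. The 12 samples came from 4 mice: marrow of 2 wildtype animals (Commd1 wildtype) and 2 knockout animals (Commd1 knockout) was grown for 10 days with GM-CSF at 20 ng/ml, and each culture gave an untreated sample, a sample treated for 3 h and a sample treated for 24 h with LPS at 10 ng/mL. LPS, lipopolysaccharide from the outer membrane of bacteria, activates TLR4. The labels give no strain, age or sex of the mice and do not say which cells lack the gene or which part of it was removed. The replicates are separate mice.

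COMMD1 is a founding member of the COMMD protein family. In the CCC complex it works with retriever, retromer and the WASH complex to return membrane proteins from endosomes to the cell surface. In the nucleus it helps ubiquitin ligases to degrade RelA, a subunit of NF-kB, and in the liver it takes part in copper export. Macrophages grown with GM-CSF hold RNA for antigen presentation, lipid handling and inflammatory genes before any stimulus, and the series asks what loss of COMMD1 does to inflammatory genes. In such bulk samples, fewer cells of a type and less RNA per cell cannot be told apart.

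Each untreated sample was on its own array, all 4 on the same slide. Wildtype lay on positions 1 and 2 and knockout on positions 3 and 4, so the effects of genotype and of position on the slide cannot be told apart. Between 71.9% and 72.9% of probes were well above background on the wildtype arrays, against 65.7% and 69.3% on the knockout arrays. Spike-in controls gave log2 signal slopes of 0.7355 and 0.743 for the wildtype arrays and of 0.7938 and 0.7967 for the knockout arrays. No spot was saturated. Replicates correlated across genes at r = 0.9959 in wildtype and 0.9958 in knockout. Levels below are log2 signals relative to the array's 75th percentile, and a difference is knockout minus wildtype on that scale. The value after ± is limma's standard error of that difference, with n = 2 mice per group. It rests on a spread estimated from all 12 arrays and is not the spread of the 4 untreated arrays alone. A gene was called when limma's Benjamini-Hochberg adjusted p, over all genes, was under 0.05.

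The targeted gene was lower in both knockout samples. Commd1 stood at 2.72 and 2.79 in wildtype and at -0.50 and -0.01 in knockout. It was 8.05-fold lower (-3.01 ± 0.23, adjusted p = 0.00165). Its signal stayed well above background on both knockout arrays. The probe lies on the minus strand of mm9 chromosome 11, from 22856412 to 22856471. Its sequence is printed because it is the readout that checks the genotype labels, and whether it lies inside the removed part of the gene is not given in the sources used here.
Commd1 probe: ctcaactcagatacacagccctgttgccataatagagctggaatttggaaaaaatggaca

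Of the 23 other genes with a probe within 1 Mb of this one, 1 was called higher and 2 lower. Within 10 Mb, 3 of 117 other genes were higher and 6 lower. Over all genes tested 3.77% were higher and 3.07% lower. Zrsr1, which lies inside Commd1 and encodes a splicing factor, stood at 0.41 and 0.14 in wildtype and 0.78 and 0.68 in knockout (0.46 ± 0.11, adjusted p = 0.0436). Xpo1, the nuclear export receptor, stood at 2.36 and 2.37 against 1.86 and 2.00 (-0.43 ± 0.09, adjusted p = 0.0287). 0610010F05Rik stood at 1.39 and 1.30 against 0.57 and 0.64 (-0.74 ± 0.09, adjusted p = 0.00655). The groups of these genes did not overlap, which held for every called gene. Rel, which encodes the NF-kB subunit c-Rel and also lies within 1 Mb, was not called (-0.09 ± 0.18, adjusted p = 0.806).

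Over all 22973 genes tested, 865 (3.77%) were higher and 706 (3.07%) lower in untreated knockout cells, together 1571 (6.84%). Of these, 309 were at least 2-fold higher and 229 at least 2-fold lower. The median difference of all genes was 0.04, and 5717 genes had an unadjusted p under 0.05. In all 1571 called genes the 2 knockout values lay on the same side of the 2 wildtype values. The same arrays made the calls, so this adds no separate evidence. The share over all genes was not counted. The spread was estimated from all 12 arrays, in which the samples of a mouse at different times count as independent. A fit to the 4 untreated arrays alone, with 2 residual degrees of freedom, called 0 genes, with 5158 at an unadjusted p under 0.05. Without wildtype replicate 1 the count was 618, without wildtype replicate 2 it was 182, and without knockout replicate 1 it was 152.

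**Figure D1:**
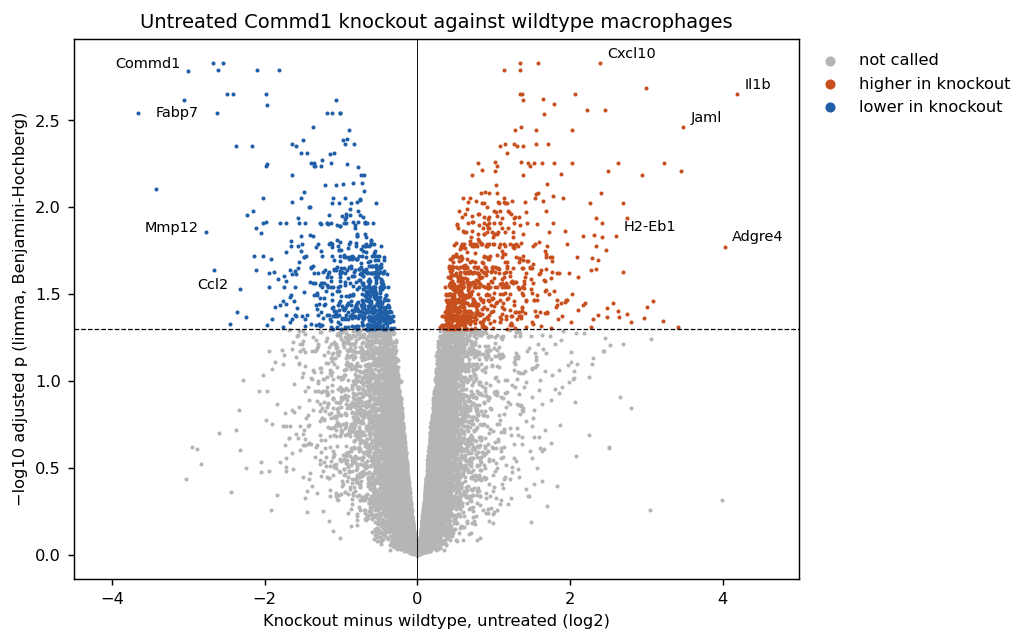
Each point is a gene, with the untreated knockout minus wildtype difference (log2) on the x axis and −log10 of limma's adjusted p on the y axis; the dashed line marks 0.05. The 865 genes higher and 706 lower lie above the line, with Il1b and Adgre4 farthest to the right among the labelled genes and Commd1 among the lowest values at the left.

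The largest increase among genes detected on all 4 arrays was in Il1b, the gene of the inflammatory cytokine interleukin-1 beta. Its level was -4.80 and -5.14 in wildtype and -0.17 and -1.39 in knockout. It was 18.2-fold higher (4.19 ± 0.35, adjusted p = 0.00222), and it stayed called when any of the 4 arrays was left out. Adgre4, an adhesion receptor of myeloid cells also known as F4/80-like receptor, stood at -3.98 and -4.96 against 0.22 and -1.11 (4.03 ± 0.66, adjusted p = 0.0169). Jaml, an adhesion molecule of leukocytes, stood at -5.24 and -5.42 against -1.22 and -2.48 (3.48 ± 0.34, adjusted p = 0.00347). In each of these genes knockout replicate 1 was the highest array and replicate 2 the next.

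Others among the 12 largest increases were Tmem176a, a membrane protein of antigen-presenting cells (2.94 ± 0.35), Vnn3, a pantetheinase family member (2.74 ± 0.39), and Gpr82, an orphan receptor (2.69 ± 0.50). Nell2, a secreted glycoprotein, was higher by 2.69 ± 0.36. Cp, which encodes the copper-carrying ferroxidase ceruloplasmin, stood at -4.41 and -4.79 in wildtype and -1.62 and -2.33 in knockout (2.62 ± 0.30, adjusted p = 0.0056). H2-Eb1, a chain of MHC class II, closed the list at 2.60 ± 0.40. The remaining 3, Nwd2 (3.22 ± 0.76), Hoxd13 (2.97 ± 0.70) and Nhlh1 (2.75 ± 0.63), are taken up with the probe sequences below.

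After Commd1, the largest decrease was in Mmp12, the macrophage elastase. Its level was 3.79 and 3.78 in wildtype and 0.57 and 1.46 in knockout, a 6.82-fold decrease (-2.77 ± 0.42, adjusted p = 0.0139). Mmp12 was no longer called without wildtype replicate 1 or 2 or knockout replicate 1. Fabp7, a fatty acid binding protein, stood at -1.43 and -1.42 against -4.45 and -3.65 (-2.63 ± 0.24, adjusted p = 0.00286). Adamts1, a secreted protease, stood at -2.52 and -2.44 against -5.37 and -4.81 (-2.61 ± 0.19, adjusted p = 0.00162). Cd200, the ligand of an inhibitory receptor on myeloid cells, stood at -1.64 and -1.62 against -4.37 and -3.97 (-2.54 ± 0.16, adjusted p = 0.00148). The wildtype values of these 4 genes lay close together, and the knockout values were more spread.

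The other large decreases were of varied function. They took in Ccne2, a cyclin of the start of DNA replication (-2.46 ± 0.59), Spsb4, a substrate adaptor of ubiquitin ligases (-2.38 ± 0.25), and Ccl2, the chemokine that attracts monocytes (-2.32 ± 0.47). Dusp4, a phosphatase that turns off MAP kinases, differed by -2.17 ± 0.23. Dio2, which activates thyroid hormone, differed by -2.15 ± 0.29, Rgs1, a brake on G protein signals, by -2.14 ± 0.36, and Cdca7 by -2.12 ± 0.39.

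**Figure D2:**
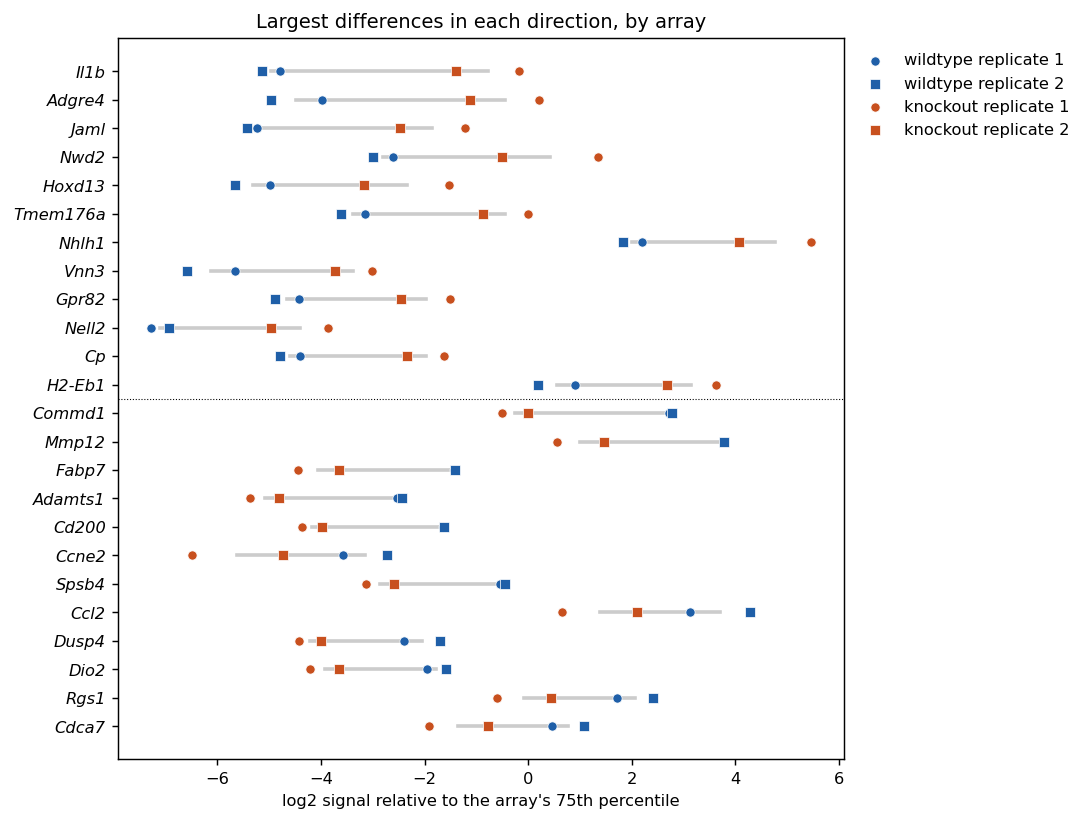
Levels of the 12 largest increases (above the dotted line) and 12 largest decreases (below it) on the 4 untreated arrays, as log2 signal relative to the array's 75th percentile; grey bars join the group means of 2 mice. Knockout replicate 1 lies farther from wildtype than knockout replicate 2 in all 24 genes.

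Some called genes were not above background on either array of a group, so that only a lower bound of the fold can be given, computed against the lowest detected signal of each array. There were 19 such genes among those higher and 57 among those lower. Of all probes, 65.7% and 69.3% were well above background on the knockout arrays, against 71.9% and 72.9% on the wildtype arrays. How far this goes into the 2 counts was not tested. Rasgrp1, an activator of RAS, was at least 2.89-fold higher, and the transcription factor gene Sox30 at least 2.37-fold higher. Prm3, at least 4.03-fold, Bend5, at least 3.73-fold, and Ppm1n, at least 2.07-fold, completed the first 5. In the other direction Sox7, a transcription factor gene, was at least 4.21-fold lower, Vmn2r69 at least 3.35-fold, Ttll2 at least 2.58-fold, Chsy3, a chondroitin synthase gene, at least 2.53-fold and Acot4, an acyl-CoA thioesterase gene, at least 2.12-fold lower.

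Genes of MHC class II were higher. They encode the surface proteins that present peptides to helper T cells. Of 18 measured genes of MHC class II and costimulation, 10 were higher, 0 lower and 8 not called, with a median difference of 0.67 against 0.04 over all genes. H2-Ab1 stood at 0.50 and -0.11 in wildtype and 3.12 and 2.02 in knockout (2.37 ± 0.41, adjusted p = 0.0201). H2-Aa stood at -3.16 and -3.85 against -0.72 and -1.61 (2.34 ± 0.38, adjusted p = 0.0167). Cd74, the invariant chain that escorts class II proteins, stood at -0.06 and -0.08 against 2.57 and 1.82 (2.27 ± 0.30, adjusted p = 0.0095). H2-Eb1 stood at 0.91 and 0.19 against 3.63 and 2.67 (adjusted p = 0.0147). A second detected probe for H2-Ab1 gave the same difference, 2.37. Without wildtype replicate 2, and likewise without knockout replicate 1, 2 members of the list stayed called, with medians of 0.51 and 0.59.

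The stretches upstream of H2-Eb1 and H2-Aa are shown because both members moved together and both hold the Y box, an element of class II promoters. The Y box was searched as CTGATTGG on both strands in RefSeq promoters (GRCm38, 250 bases before to 50 after each start). It contains the letters of a CCAAT box. Capitals mark it in the 250 bases upstream, printed 5′ to 3′ on the gene's strand. H2-Eb1 lies on the plus strand at chr17:34305617-34305866 and H2-Aa on the minus strand at chr17:34287824-34288073.
H2-Eb1: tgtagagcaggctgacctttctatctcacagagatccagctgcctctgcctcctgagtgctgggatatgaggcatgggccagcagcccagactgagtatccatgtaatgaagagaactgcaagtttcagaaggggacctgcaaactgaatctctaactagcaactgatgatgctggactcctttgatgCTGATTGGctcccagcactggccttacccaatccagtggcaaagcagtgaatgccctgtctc
H2-Aa: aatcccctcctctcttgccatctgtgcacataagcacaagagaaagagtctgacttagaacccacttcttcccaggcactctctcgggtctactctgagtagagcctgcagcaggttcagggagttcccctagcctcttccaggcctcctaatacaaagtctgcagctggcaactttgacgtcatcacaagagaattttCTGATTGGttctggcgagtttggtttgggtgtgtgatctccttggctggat

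Of the 12 members of the class II list with a promoter in the table, 3 held this motif (H2-Aa, H2-Eb1 and H2-Oa). Of the same 12 members 7 were called higher, including these 3. The share was 6.09% over the tested genes with a promoter, 6.27% over those higher and 5.34% over those lower.

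Interferon-stimulated genes encode antiviral proteins. Of 41 measured, 20 were higher, 0 lower and 21 not called, and all 41 had a positive difference, with a median of 0.58. Gbp5, a guanylate-binding GTPase, stood at -3.05 and -3.28 in wildtype and -1.21 and -1.54 in knockout (1.79 ± 0.16, adjusted p = 0.00254). Ifit1, which binds foreign RNA ends, stood at -2.09 and -2.20 against -0.92 and -0.42 (1.48 ± 0.17, adjusted p = 0.00581). Gbp3 was higher by 1.53 ± 0.17 and Ifit3 by 1.38 ± 0.15. These 4 genes stayed called whichever array was left out. The list held 8 calls without wildtype replicate 1, 5 without wildtype replicate 2, 10 without knockout replicate 1 and 11 without knockout replicate 2, with medians from 0.48 to 0.66.

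Many of these genes carry the interferon-stimulated response element near their start. It was searched on both strands as GAAA, any 2 bases and GAAA again. Capitals mark it in the 250 bases upstream of Ifit1, at chr19:34640639-34640888, and of Gbp5, at chr3:142496684-142496933, both on the plus strand of GRCm38 (RefSeq). In both it reads on the opposite strand.
Ifit1: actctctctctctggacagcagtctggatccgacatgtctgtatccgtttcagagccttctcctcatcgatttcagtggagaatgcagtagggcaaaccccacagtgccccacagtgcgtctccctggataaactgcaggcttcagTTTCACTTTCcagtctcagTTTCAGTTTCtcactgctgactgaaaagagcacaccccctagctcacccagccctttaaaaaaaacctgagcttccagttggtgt
Gbp5: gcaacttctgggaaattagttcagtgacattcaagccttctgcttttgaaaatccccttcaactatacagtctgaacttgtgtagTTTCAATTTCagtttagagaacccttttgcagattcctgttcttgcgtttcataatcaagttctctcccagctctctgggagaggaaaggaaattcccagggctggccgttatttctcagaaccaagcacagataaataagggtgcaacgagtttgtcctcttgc

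Of the 30 list members with a promoter in the table, 19 held the motif, and of the 13 of them called higher, 8 did. The motif was in 3.93% of tested genes with a promoter, in 8.6% of the 558 called higher and in 1.92% of the 468 called lower. A match is a run of letters and not a measured binding site.

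MHC class I and immunoproteasome genes differed less. Of 19 measured, 6 were higher and 0 lower, with Psmb9, an immunoproteasome subunit, at 0.51 ± 0.09, H2-T23 at 0.50 ± 0.10, H2-Q6 at 0.50 ± 0.11 and the peptide-loading factor Tapbp at 0.48 ± 0.11. The list median was 0.35, but it was -0.01, with 1 member higher and 2 lower, when log2 signals were rescaled to a common spike-in slope. Leaving out any of the 4 arrays left 0 members called.

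Of 24 genes of the NF-kB family and its feedback, 7 were higher, 0 lower and 17 not called, with a median of 0.20. NF-kB is the transcription factor that drives much of the inflammatory response, and several of its targets restrain it. Bcl3, a nuclear partner of the p50 and p52 subunits, stood at 2.53 and 2.03 in wildtype and 3.90 and 3.35 in knockout (1.35 ± 0.20, adjusted p = 0.0126). Birc3, a ubiquitin ligase, was higher by 1.05 ± 0.18, the subunit gene Relb by 0.94 ± 0.12, and Nfkbia, which encodes the inhibitor IkB-alpha, by 0.84 ± 0.11. Without knockout replicate 1 the list held 0 calls, and without wildtype replicate 2 it held 1.

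Cytokine genes other than Il1b showed smaller differences. Of 24 inflammatory cytokine genes 5 were higher and 1 lower. The list median of 0.46 was 0.04 under quantile normalization, 0.12 with normexp and 0.16 with the deposited table. Tslp, a cytokine that acts on dendritic cells, stood at -6.19 and -6.85 in wildtype and -4.55 and -4.63 in knockout (1.94 ± 0.29, adjusted p = 0.0136). Tnfsf15 was higher by 0.90 ± 0.17. Il1rn, which encodes the antagonist of the interleukin-1 receptor, was the member called lower, with -1.85 and -1.59 against -3.68 and -3.07 (-1.65 ± 0.26, adjusted p = 0.0157). Without wildtype replicate 2 or without knockout replicate 1 the list held 1 call, Il1b. Without knockout replicate 2 it held 2 higher and 1 lower, and without wildtype replicate 1 it held 3 in each direction.

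Chemokine genes split. Of 23 measured, 6 were higher and 4 lower. Cxcl10, an interferon-induced chemokine for T cells, stood at -1.71 and -2.28 in wildtype and 0.38 and 0.43 in knockout (2.40 ± 0.16, adjusted p = 0.00148). Ccl2 stood at 3.14 and 4.28 against 0.66 and 2.11 (adjusted p = 0.0295), and its neighbour in function Ccl7 at -0.03 and 1.30 against -1.93 and -0.74 (-1.97 ± 0.48, adjusted p = 0.0479). Ccl4 stood at 2.98 and 3.45 against 1.09 and 1.90 (-1.73 ± 0.25, adjusted p = 0.0123). The groups of all 4 genes were apart, as in every called gene, by the narrowest margin in Ccl7. Without wildtype replicate 2 the list had 4 members higher and 0 lower. Without knockout replicate 1 it had 3 higher and 1 lower.

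Receptors for these and other signals were called in both directions. Of 17 chemokine receptors 3 were higher and 1 lower, with Ccr2, the receptor of Ccl2, at -2.19 and -2.12 in wildtype and -0.73 and -0.86 in knockout (1.36 ± 0.13, adjusted p = 0.00347). Cx3cr1, the fractalkine receptor, was higher by 1.22 ± 0.25 and the formyl peptide receptor Fpr2 by 1.04 ± 0.22, while Ccr3 stood at -0.85 ± 0.17. Of 26 growth factor and cytokine receptors 5 were higher and 1 lower. Il4ra, shared by interleukins 4 and 13, was higher by 1.73 ± 0.26, Il1r1 by 1.36 ± 0.21 and Il10ra by 1.04 ± 0.15, and Kit was lower at -1.37 ± 0.21. Of 24 Toll-like receptors and adaptors 4 were higher and 2 lower, including Tlr2 (1.28 ± 0.18), the adaptor Myd88 (0.63 ± 0.12) and Cd180 (-1.06 ± 0.26). Without wildtype replicate 2, as without knockout replicate 1, 0 cytokine receptors and 0 Toll-like receptors and adaptors were called, and 1 chemokine receptor was.

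Surface receptors of myeloid cells were called in both directions. Of 26 C-type lectins and Siglecs 7 were higher and 3 lower. Clec4n stood at 2.98 and 2.75 in wildtype and 4.87 and 4.23 in knockout (1.68 ± 0.28, adjusted p = 0.0186). Clec4a1 was higher by 1.47 ± 0.26, Clec10a by 1.32 ± 0.26 and Clec4b1 by 1.39 ± 0.25, although another detected probe of Clec4b1 gave 0.09. Without wildtype replicate 2, and without knockout replicate 1, 0 lectins were called, and without wildtype replicate 1 there was 1 in each direction. Of 22 Fc receptors and TREM family genes 5 were higher and 2 lower, among them Fcrls (2.25 and 2.34 against 3.96 and 3.75) and Fcgrt, the neonatal Fc receptor (1.54 ± 0.25), and 1 was called without wildtype replicate 2 or knockout replicate 1.

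Complement genes were mostly called higher where called. Of 19 measured, 7 were higher and 1 lower (median 0.41). C3, the central component, stood at -0.66 and -0.75 in wildtype and 1.61 and 1.11 in knockout (2.07 ± 0.17, adjusted p = 0.00222), and a second detected probe gave 1.57. Cfb, factor B of the alternative pathway, was higher by 1.69 ± 0.21, and Cd55, which protects cells from complement, by 1.55 ± 0.16. Itgax, a chain of complement receptor 4 and known as CD11c, stood at 2.33 and 2.27 against 0.78 and 1.14 (-1.34 ± 0.26, adjusted p = 0.0272). C3, Cfb and Cd55 stayed called whichever array was left out, while the list held 3 calls without wildtype replicate 2 or knockout replicate 1 and 4 without wildtype replicate 1.

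Genes of sterol and fatty acid synthesis were lower. Of 32 measured, 12 were lower, 0 higher and 20 not called, and 2 of the 32 had a positive difference. The median was -0.60. Fdps, which makes farnesyl diphosphate, stood at 4.24 and 4.70 in wildtype and 3.11 and 3.50 in knockout (-1.16 ± 0.21, adjusted p = 0.0237). Sqle, squalene epoxidase, stood at 3.32 and 3.75 against 2.20 and 2.69 (-1.09 ± 0.20, adjusted p = 0.023). Cyp51, lanosterol demethylase, was at -1.12 ± 0.18 and Hsd17b7, another sterol enzyme, at -1.35 ± 0.28. The median ranged from -0.76 to -0.48 when arrays were left out, but 0 members stayed called without wildtype replicate 2 or without knockout replicate 1, and 7 without wildtype replicate 1.

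Lipid handling genes were called in both directions. Of 21 LXR targets and lipid handling genes 4 were higher and 3 lower. Apoc1, an apolipoprotein, was higher by 2.17 ± 0.47, and Pltp, the phospholipid transfer protein, stood at -0.46 and -0.47 against 1.48 and 0.79 (1.60 ± 0.30, adjusted p = 0.0239). The fatty acid carrier Fabp4 was lower by 3.01-fold (-1.59 ± 0.17, adjusted p = 0.00445), and the fatty acid uptake receptor Cd36 at 4.39 and 4.32 against 2.57 and 3.25 (-1.45 ± 0.33, adjusted p = 0.0415). Pparg, the nuclear receptor that drives both Fabp4 and Cd36 in macrophages, was lower at -0.79 ± 0.12. In the list of alternative activation and PPAR gamma genes 4 of 20 were higher, among them F13a1 (2.27 ± 0.41) and Ccl24 (1.42 ± 0.19), and 5 were lower, among them Arg1, which was not above background on either knockout array.

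Immediate early genes, which respond within minutes to signals, were called in both directions. Of 24 measured, 3 were higher and 6 lower. Egr2, a zinc finger factor, stood at 1.77 and 1.90 in wildtype and -0.46 and -0.09 in knockout (-2.11 ± 0.16, adjusted p = 0.00162). Dusp4 stood at -2.39 and -1.70 against -4.43 and -4.00 (adjusted p = 0.00445), and Myc at -2.04 and -1.03 against -3.80 and -3.15 (-1.94 ± 0.39, adjusted p = 0.0287). Ier3 was higher, with -0.53 and -0.82 against 1.39 and 0.84 (1.79 ± 0.20, adjusted p = 0.0056). Nr4a1, an orphan nuclear receptor, was higher by 1.27 ± 0.21. The list held 3 calls without wildtype replicate 2 and 4 without knockout replicate 1. Of 19 growth factor genes 3 were higher, 1 was lower and 15 were not called, with Thbs1 at 2.17 ± 0.33, Bmp2 at 0.91 ± 0.18, and Hbegf, an EGF receptor ligand, at -1.57 ± 0.22.

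Among the partners of COMMD1 no gene beyond Commd1 itself was called. Of 10 COMMD family genes Commd1 was lower and the other 9 were not called. Of 23 genes of CCC, retriever, retromer and WASH, 0 were called by limma, 7 had an unadjusted p under 0.05, and 11 were called lower after rescaling to a common spike-in slope. Their differences ran from -0.40 for Snx2 (± 0.14, adjusted p = 0.121) to 0.36 for Snx6 (± 0.11, adjusted p = 0.0895), both sorting nexins. Of 20 endosomal cargo receptors 2 were higher, Sorl1 (1.15 ± 0.23) and Vldlr (1.03 ± 0.22), and 5 were lower, among them Cd36 and the transferrin receptor Tfrc (-1.30 ± 0.21). Of 23 copper homeostasis genes 2 were called, Cp, described above, and the metalloreductase Steap3 (-0.63 ± 0.11).

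**Figure D3:**
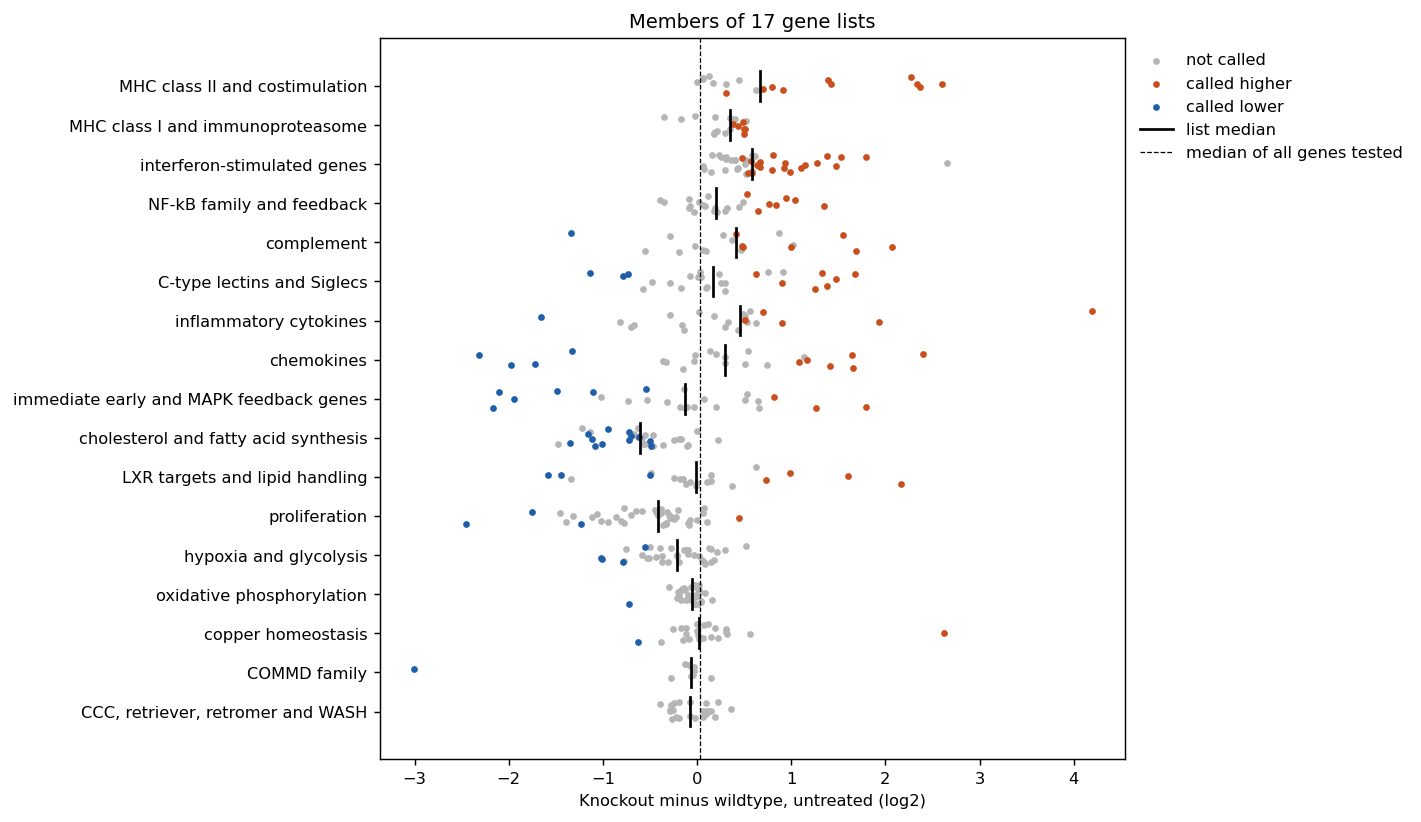
Untreated knockout minus wildtype differences (log2, x axis) of the measured members of 17 gene lists; orange points were called higher, blue lower and grey not called, the black bar is the list median and the dashed line the median of all genes, 0.04. Class II and interferon-stimulated genes extend to the right, with 10 of 18 and 20 of 41 called higher, and sterol and fatty acid synthesis genes to the left, with 12 of 32 called lower.

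Proliferation, metabolism and stress lists are read against the 6.84% of all genes that were called. Of 41 proliferation genes 1 was higher and 3 lower, with a median of -0.41. Ccne1 was lower at -1.75 ± 0.35 and Pcna, the replication clamp, at -1.23 ± 0.23, while the centromere gene Cenpa stood at 0.44 ± 0.08. Of 35 hypoxia and glycolysis genes 4 were lower, among them Ankrd37 (-1.02 ± 0.16) and the glucose transporter Slc2a1 (-0.79 ± 0.12). Of 36 oxidative phosphorylation genes 1, Cycs, was lower (-0.72 ± 0.15). Of 27 genes of the unfolded protein response and ATF4 3 were higher, led by Ddit4 (1.16 ± 0.23), and 2 lower, Chac1 (-1.25 ± 0.25) and Atf4 (-0.55 ± 0.11). Of 15 heat shock genes only Hsp90aa1 was called (-0.69 ± 0.11). Of 27 NRF2 and oxidative stress genes 1 was higher (Osgin1, 0.61 ± 0.15) and 2 lower (Srxn1, -0.46 ± 0.10, and Gpx1, -0.38 ± 0.09).

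The other lists held calls in both directions. Of 22 matrix proteases and inhibitors 1 was higher, the membrane protease Mmp14 (1.21 ± 0.22), and 4 were lower, among them Mmp12 and the collagenase Mmp13 (-0.94 ± 0.13). Of 36 lysosome and V-ATPase genes 3 were higher, including cathepsin E (Ctse, 1.08 ± 0.16), and 3 lower, including cathepsin K (Ctsk, -1.02 ± 0.09) and Atp6v0d2 (-0.89 ± 0.12). Of 24 integrins and adhesion genes 2 were higher, including Itgal (1.02 ± 0.16), and 3 lower, including Vcam1 (-1.67 ± 0.40). Of 20 scavenger and phagocytosis genes Axl (0.87 ± 0.12) and Cxcl16 (1.08 ± 0.26) were higher and 3 were lower, including Msr1. Of 25 antimicrobial and nitric oxide genes 3 were higher, including Acod1, which makes itaconate (1.15 ± 0.12), and S100a8 was lower (-1.61 ± 0.32). Of 28 p53 target and apoptosis genes 4 were higher, including Btg2 (0.85 ± 0.14), and 2 lower, including Bcl2l1 (-1.31 ± 0.27). Of 19 clock genes 2 were higher, including Nfil3 (0.81 ± 0.16), and 2 lower, including Bhlhe40 (-1.26 ± 0.15). Of 28 myeloid transcription factors 3 were higher, including Irf1 (0.80 ± 0.15), and 2 lower. Of the 35 lists other than markers, 34 held a call with all arrays, 31 without wildtype replicate 1, 33 without knockout replicate 2, and 16 without wildtype replicate 2, as without knockout replicate 1.

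The labelled cell type was checked against its markers. All 17 macrophage markers were well above background on all 4 arrays. So were 20586 of the 22973 genes tested, 11 of 12 osteoclast markers and 15 of 18 stroma and fibroblast markers. Detection alone therefore does not tell cell types apart. The summed linear level of the macrophage markers, in units of the array's 75th percentile, was 521 and 554 in wildtype and 601 and 617 in knockout. Of the 17, 4 were higher, including Cx3cr1, Fcgr1 (0.60 ± 0.14) and C1qb (0.48 ± 0.09), and Msr1 was lower. The list median of 0.30 became -0.13, with 1 higher and 6 lower, after rescaling to a common spike-in slope.

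Markers of other cells were given for their part in the lists above, which was not tested. Monocyte and progenitor markers summed to 23.1 and 24.5 in wildtype and 24.2 and 25.1 in knockout, with F13a1, Ly6c1 (1.44 ± 0.25, though 0.09 on another detected probe) and Ccr2 higher and Myb (-1.40 ± 0.34) and Kit lower. Dendritic cell markers, a type that also carries class II, summed to 54.4 and 56.8 in wildtype and 54.4 and 60 in knockout. Of 16 measured, Kmo was higher (2.03 ± 0.20) and Itgax lower, and Xcr1, Clec9a and Ccl22 were not above background on any untreated array. B cell markers, another class II type, summed to 64.6 and 75.8 in wildtype and 68.1 and 73.9 in knockout. Of 12 measured Cd79b was higher (1.10 ± 0.16), and Ebf1, Igkc, Igll1 and Rag1 were not above background on any untreated array.

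Sums for the other marker lists follow. Osteoclast markers summed to 26.5 and 28.6 in wildtype and 16 and 16.5 in knockout, with 2 of 12 lower. Adipocyte markers summed to 45.4 and 48.8 against 34.2 and 34.7, with Fabp4 and Pparg lower. Of the 5 adipocyte markers measured, 3 had a positive difference (median 0.08). Eosinophil markers summed to 1.14 and 1.26 against 0.707 and 0.819, with Ccr3 and Siglecf (-0.79 ± 0.10) lower and Ear6 (0.51 ± 0.08) higher. Erythroid markers summed to 2.28 and 2.34 against 1.7 and 1.78, with Tfrc lower, although 4 of 8 had a positive difference (median 0.05). Stroma and fibroblast markers summed to 8.3 and 8.52 against 9.11 and 11.7, with Pdgfrb (1.09 ± 0.25) and Dcn (0.95 ± 0.19) higher. Megakaryocyte markers summed to 73.4 and 74.6 against 77.5 and 80.9, with Ppbp (1.66 ± 0.16) higher. T and NK cell markers summed to 7.03 and 7.12 against 8.37 and 8.84, although 5 of 13 had a positive difference (median -0.04). Of these 13, 0 were called by limma, with 3 at an unadjusted p under 0.05. Mast cell and basophil markers summed to 0.569 and 0.865 against 0.528 and 0.583, with Kit lower. Neutrophil markers summed to 22.9 and 23.2 against 23.1 and 26, although 1 of 14 had a positive difference (median -0.29) and S100a8 was lower. Endothelial markers summed to 9.62 and 9.86 against 9.16 and 9.36, although 5 of 9 had a positive difference (median 0.03). Of these 9, 0 were called by limma, with 2 at an unadjusted p under 0.05.

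The probe sequence moved with the difference in a small set of genes. Of 264 genes whose probe holds an alternating TG run of at least 8 bases, 105 (39.8%) were called higher and 4 (1.52%) lower, with a median difference of 0.84. With runs of at least 12 bases, 78 of 108 (72.2%) were higher and 0 lower, with a median of 1.06. Probes with an alternating AC run went the other way: of 143 genes 2 (1.4%) were higher and 21 (14.7%) lower, with a median of -0.31, and at 12 bases or more 17 of 50 (34%) were lower. The 22569 genes with neither run had 3.36% higher and 3.02% lower. The medians for TG runs of at least 8 bases were 0.52 after 3 h and 0.46 after 24 h of LPS.

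Among the 12 largest increases Nhlh1 and Hoxd13 have such a TG run, and Nwd2 has one of 7 bases. Stretches of 28 bases from the 60-base probes of Hoxd13 and Nwd2 are printed 5′ to 3′, with the longest alternating run in capitals. Both genes are shown as members of the 12 largest increases. The run of Nwd2 is shorter than the 8 bases counted above, and differences by such shorter runs were not examined.
Hoxd13: tttttgtagatacaGTGTGTGTGagcag
Nwd2: gttacatgtaGTGTGTGagtgttctgtg

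Nhlh1, a neuronal transcription factor gene, stood at 2.19 and 1.84 in wildtype and 5.46 and 4.07 in knockout, while a second detected probe differed by 0.28. Hoxd13, a limb patterning gene, stood at -4.98 and -5.66 against -1.53 and -3.16. Nwd2 stood at -2.60 and -2.99 against 1.35 and -0.50. All 3 had adjusted p between 0.041 and 0.0452 and were not called without knockout replicate 1. Without any probe holding a TG or AC run of at least 8 bases, 705 genes were higher and 620 lower, and the class II and interferon lists held 9 and 19 genes called higher. Whether the other calls on such probes reflect their named genes was not tested.

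**Figure D4:**
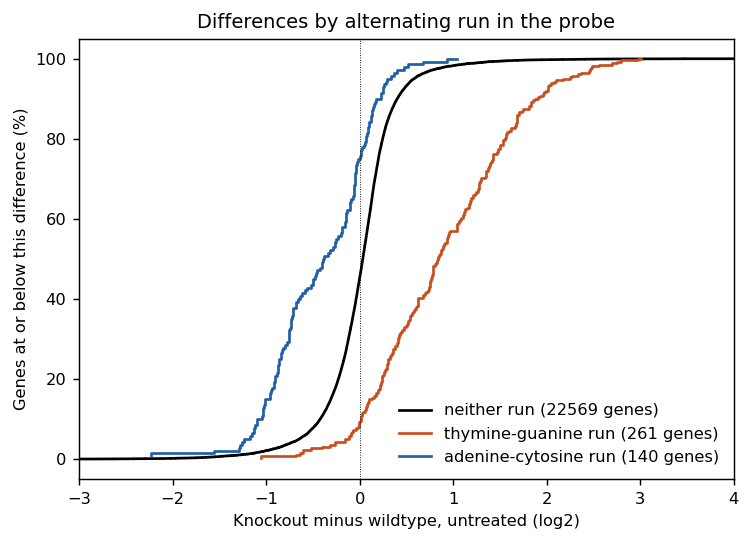
Cumulative share of genes (%, y axis) against the untreated knockout minus wildtype difference (log2, x axis) for genes whose probe holds an alternating thymine-guanine run of at least 8 bases, an adenine-cytosine run, or neither; 3 genes with both are left out. The thymine-guanine curve lies to the right of the others and the adenine-cytosine curve to the left.

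The 2 knockout mice did not differ from wildtype to the same extent. Among the 865 genes higher, knockout replicate 1 was above replicate 2 in 84.2%, against 59% of all genes, and among the 706 lower in 16.4%. The wildtype replicates also lined up with the calls to a lesser degree: replicate 1 was above replicate 2 in 78.6% of the genes higher and 33.3% of those lower, against 57.4% of all genes. These shares describe the arrays that made the calls and carry no test.

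The untreated difference was then set beside the same difference in the cells of the same mice after LPS. At 3 h, 245 genes (1.07%) were higher in the knockout and 142 (0.618%) lower, together 387 (1.68%). After 24 h the counts were 165 (0.718%) and 384 (1.67%), together 549 (2.39%). Of the 865 genes higher at rest 106 were also higher at 3 h, 12.3% of the resting list and 43.3% of the 3 h list. At 24 h 44 were, 5.09% and 26.7%. Of the 706 lower at rest 50 were also lower at 3 h (7.08% and 35.2%) and 78 at 24 h (11% and 20.3%). Pltp was higher at all times (1.61 and 1.72 at 3 h and 24 h), as was Ccr2 (1.26 and 0.84), and H2-Eb1 was higher at 3 h (2.43) but not called at 24 h (1.30, adjusted p = 0.12).

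The difference itself changed with LPS in 8 genes (0.0348%) at 3 h by limma's interaction contrast, 6 upwards (0.0261%) and 2 downwards (0.00871%). At 24 h it changed in 75 genes (0.326%), 35 upwards (0.152%) and 40 downwards (0.174%). Of the 79 genes called in either contrast 57 were also called at rest, and in all 57 the change ran against the resting difference. The untreated arrays enter both quantities with opposite sign, so this direction is partly built in. Il1b, 18.2-fold apart at rest, differed by 0.17 after 3 h (adjusted p = 0.81) and by -0.50 after 24 h (adjusted p = 0.45), when it stood at 0.46 and 0.54 in wildtype and at -0.27 and 0.28 in knockout. Its genotype difference changed by -4.69 ± 0.50 from rest to 24 h (adjusted p = 0.0279) and by -4.02 ± 0.50 to 3 h, which missed the threshold (adjusted p = 0.0528). Cd200 differed by -0.23 after 3 h (adjusted p = 0.41), and its difference changed by 2.31 ± 0.23 (adjusted p = 0.0317). Cxcl10 stood at 7.37 and 7.47 against 7.69 and 7.61 after 3 h, a change of -2.17 ± 0.23 (adjusted p = 0.0317).

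**Figure D5:**
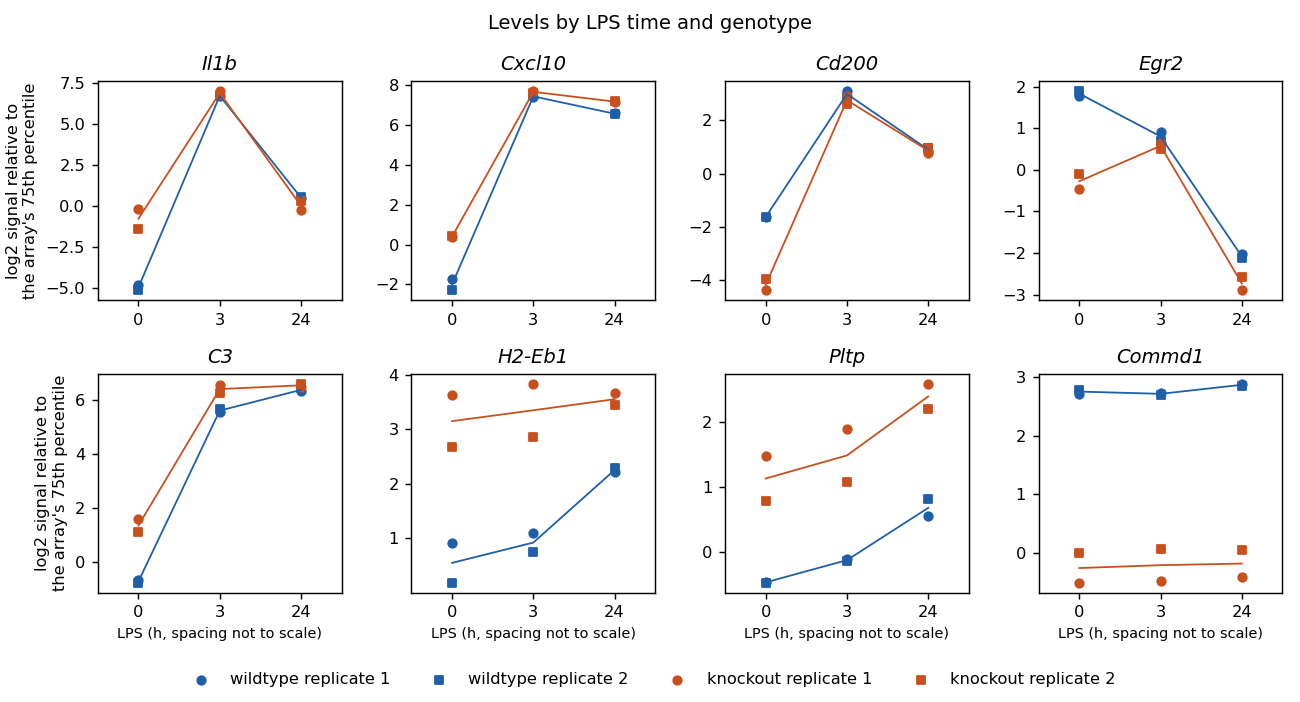
Levels of 8 genes as log2 signal relative to the array's 75th percentile (y axes, each with its own range) at 0, 3 and 24 h of LPS; points are mice and lines join group means of 2. Il1b, Cxcl10, Cd200 and C3 are apart at 0 h and close at 24 h, while Pltp and Commd1 are apart at all times.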

How the data were processed

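RNA of 12 samples was measured on 12 single-colour Agilent arrays. Per the file headers, the authors' scanner files give a processed intensity per spot, after subtraction of background and spatial trend. Signals were extracted with Agilent Feature Extraction 10.7.3.1, per the submitters' processing notes. The authors' deposited values are log2 and not centred per gene: 99.5% to 100% of those well above background equal the log2 processed signal minus a constant within 0.01 on each array, with column medians of -4.32 to -4.46 on the untreated arrays. They were used as an alternative.

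Control and outlier spots were left out, spots of a probe averaged and log2 signals reduced by the array's 75th percentile. Probes were kept if both arrays of any of the 6 groups were well above background (28426 probes), and the brightest stood for its gene (22975 genes, 18045 matched to RefSeq; 22973 had a value in both untreated groups). All 12 arrays were fitted in limma 3.58.1 (R 4.3.3), with 6 residual and 2.23 prior degrees of freedom. Of all probes 78.7% were named through the reference. The script was tested on simulated data. Python, numpy, pandas and matplotlib made the tables and figures. Array number limits the precision.

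The comparison and lists were chosen with earlier results of these data known. Named genes are Commd1 and its neighbours within 1 Mb, the 12 largest called differences per direction among matched genes detected on all 4 arrays, 5 per direction that were below background in a group, up to 4 called members per list (else the 2 largest), and 6 with the largest called interaction, of which 1 is not reported here. Genes not well above background in a group have bounds against the array's lowest detected signal, or their own signal where higher. The bounds are given for the untreated comparison only.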

Additional observations from a re-analysis of the deposited data

Results flagged for a closer look

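The genotype difference changed between rest and LPS in 8 genes at 3 h and 75 genes at 24 h, by limma's interaction contrasts. Among the genes named in the report, the change at 24 h was -4.69 for Il1b, -1.79 for Cxcl10, -1.90 for C3, -1.72 for Cd55, -1.88 for Ier3 and -1.87 for Pilrb1, all higher in knockout at rest. It was 2.51 for Cd200, 1.45 for Egr2 and 1.65 for Fabp4, all lower at rest. At 3 h it was 2.31 for Cd200 and -2.17 for Cxcl10.

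For genes below background in at least 1 group, the changes are those of the processed signal and are no bound. They were -3.93 for Ppm1n, 3.93 for Chsy3, 3.21 for Ttll2 and 2.66 for Acot4 at 24 h, and 2.87 for Sox7 and 2.55 for Ttll2 at 3 h. Pilrb1, an activating receptor, was higher at rest (1.14) and lower at 24 h (-0.73).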

How the results depend on the processing

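The count of untreated calls (1571; 865 higher, 706 lower) stayed within 1.5 times under quantile normalization, cyclic loess, another 75th percentile, the deposited table, averaged probes and the mouse as a random block. It was 2575 (1472 and 1103) with normexp, 2358 (1287 and 1071) with a trended robust prior, 453 (251 and 202) without the filter on dim probes and 0 (0 and 0) with the untreated arrays alone. With the replicate block it was 2378 (1244 and 1134). Leaving out arrays gave 152 to 1294 in all, 69 to 758 higher and 72 to 536 lower. Without wildtype replicate 2, 37.9% of calls were higher (69 and 113), against 55.1% with all arrays. Rescaling to a common spike-in slope, chosen after seeing the data, gave 6374 (4143 and 2231) and shifted the all-gene median from 0.04 to 0.14.

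The interaction count at 3 h (8) was 14 with cyclic loess, 106 with normexp, 39 with the deposited table, 77 with probes detected on all arrays, 0 without the filter, 96 with the trended prior, 0 with the groups compared alone, 4 with the replicate block, 21 with the mouse block, 19 with the spike-in slope and 0 to 56 with arrays left out. At 24 h (75) the count was 252 with normexp, 181 with the deposited table, 243 with probes detected on all arrays, 0 without the filter, 277 with the trended prior, 2 with the groups alone, 167 with the replicate block, 204 with the mouse block and 4 to 110 with arrays left out. The cause was not tested.

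Of 160 named called genes, 36 stayed called in all 4 fits that left out an array, and 160 with the replicate block. The block changed no named call. Same numbers are different mice. Residuals of the same number correlated at 0.265 untreated, 0.086 at 3 h and -0.016 at 24 h. Those of the same mouse at different times correlated at 0.122 to 0.355. Whether untreated arrays of the same number share an effect was not tested. The Gm12057 untreated difference, -0.03, became 0.33 and was called with the spike-in slope.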
